A study of Mus musculus with 34 samples.

Results

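Interferon-stimulated genes were followed in the left ventricle (LV) of mice after myocardial infarction (MI). They are 44 genes, chosen by symbol from a list of well-known interferon targets, by a rule that uses no measured value. All 44 were present in both expression tables and all 44 passed the filter of a mean of at least 1 CPM, the read count scaled to a common library total, among 12487 of 14552 genes in the first table and 12555 of 17406 genes in the second. Poly(A) RNA from CFW mice, an outbred stock, was sequenced in 34 libraries of the LV. The first table holds 10 libraries from hearts without injection, namely 3 libraries titled sham (labelled as no operation), 3 taken 4 h post-MI and 4 taken 24 h post-MI. The second table holds 24 libraries. In it, 2 sham-operated hearts without injection were taken at 4 h, and the infarcted hearts were injected either with modified mRNA (modRNA) for luciferase (Luc, 4 libraries at 4 h, 3 at 24 h and 4 at 48 h) or with AC, as the labels write it (4 at 4 h, 3 at 24 h and 4 at 48 h). Infarcts were made by surgery on a coronary artery, and injected hearts received their modRNA in the same session.

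These groups set limits on what can be compared. The modRNA table has no infarcted heart without injection and no injected heart without infarct, so MI and injection cannot be told apart in it. Its sham hearts were taken at 4 h and serve all times. Library titles of the 4 h and sham samples carry 1 running number series, those at 48 h another, and those at 24 h none together with the letters Br, which no source explains. Time and this difference in titles cannot be told apart. Both tables were normalised separately, so no value was tested across them. No label says that the libraries of a group came from separate mice, and p-values then measure the spread between these libraries, which may be technical. CPM is not divided by transcript length, so levels of different genes are not compared.

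Type I interferons are secreted after cells sense foreign or misplaced nucleic acid. They bind a receptor whose kinases phosphorylate STAT proteins such as STAT2, which acts together with IRF9. The complex that holds both binds the interferon-stimulated response element (ISRE) before the targets, while the gamma-activated site (GAS) is an element of genes that also answer type II interferon. Many targets are themselves sensors or signalling factors of the same pathway, others block viral replication, and in the infarcted heart such genes are known to be switched on in infiltrating myeloid cells.

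The following windows show the ISRE core, to let its spelling be compared between members of the IFIT, OAS, effector, ISG15 and GTPase groups, and the GAS core in Irf1 and Psmb8. Each is a stretch of the RefSeq promoter on build GRCm38.p6 (mm10), written 5′ to 3′ on the strand of the gene. Capitals mark the core, GAAANNGAAA or its reverse complement for the ISRE and TTCNNNGAA for the GAS.
Isg15, chr4:156200873-156200898, minus strand: aggaaaagGAAACCGAAAcagaaaat
Ifit1, chr19:34640796-34640821, plus strand: agtctcagTTTCAGTTTCtcactgct
Ifit3, chr19:34583399-34583424, plus strand: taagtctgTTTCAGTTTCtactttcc
Oas3, chr5:120777717-120777742, minus strand: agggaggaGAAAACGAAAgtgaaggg
Rsad2, chr12:26456555-26456580, minus strand: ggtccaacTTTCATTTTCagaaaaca
Gbp2, chr3:142620596-142620621, plus strand: tcttttagTTTCACTTTCactgtctt
Igtp, chr11:58199514-58199539, plus strand: taggaactGAAACTGAAAgctgttcg
Irf1, chr11:53769916-53769940, plus strand: agcctgatTTCCCCGAAatgatgag
Psmb8, chr17:34198090-34198114, plus strand: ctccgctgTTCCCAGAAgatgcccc

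Promoters reached from 250 bases before to 50 bases after the transcript start, and 35 of the 44 members had one in the RefSeq table. Dhx58, Mx1, Mx2, Oas2, Parp14, Parp9, Rtp4, Usp18 and Zbp1 had none there. The ISRE core, searched on both strands, was found in 17 of the 35 members (48.6%) and in 3.99% of all 27025 genes with a promoter in the table. In 13 members it lay before the start, as in the windows of Isg15, 72 bases before it, and Ifit1, 85 bases before it. In the other 4 it lay after the start. The GAS core was found in 11 members (31.4%) and in 9.55% of all genes, and it lay 90 bases before the start of Irf1. A promoter with several matches was counted as 1, and 5 members held both cores. A match describes letters in this window and not binding.

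The 44 members lie on 14 chromosomes, and 21 of them lie within 200000 bases of another member. Dtx3l and Parp9, which form a complex that joins ubiquitin and ADP-ribose signalling, overlap by 559 bases on opposite strands, and whether the counting used strand is not given in the sources used here, so reads from that overlap cannot be told apart. The IFIT, OAS and GBP members belong to families of similar genes, and the counting divided shared reads among them by an estimate, so their single values are uncertain to that extent.

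Libraries held an estimated 12553519 to 18952669 reads in the first table and 17091513 to 22192765 in the second, at which 3 reads were worth 0.0938 to 0.144 CPM and 0.0723 to 0.126 CPM. Markers of cardiac muscle (8 genes) summed to 46850 to 49670 CPM in sham hearts of the first table and 50660 to 51320 CPM in those of the second, as the LV label implies. Markers of neutrophils (8 genes) summed to 1.94 to 3.48 CPM in sham hearts and 329 to 2024 CPM 24 h post-MI without injection, and those of monocytes or macrophages (8 genes) to 93.03 to 157 and 287 to 523 CPM. Plasmacytoid dendritic cells are a strong source of type I interferon. Their markers (4 genes, 3 of them present in the first table) summed to at most 3.002 CPM in any library. Without injection the sum was 0.455 to 0.687 CPM in sham hearts and 0.97 to 3.002 CPM 24 h post-MI, without overlap. In the modRNA table it was 0.4745 to 0.885 CPM with Luc and 1.161 to 2.144 CPM with AC at 48 h. The part of these cells in the members' changes was not tested. In bulk tissue, fewer cells of a type and less RNA per cell cannot be told apart.

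Taken as a sum over the 44 members, the interferon-stimulated genes stood at 374, 464 and 459.6 CPM in the 3 sham libraries of the first table. The sum was 373, 388 and 359 CPM at 4 h and 1638, 1618, 704 and 1026 CPM at 24 h post-MI, so every 24 h library lay above every sham and 4 h library. In the modRNA table, the 2 sham libraries stood at 428 and 394 CPM. The sum reached 1096, 826, 1088 and 787 CPM in Luc hearts at 4 h and 7364, 8455 and 4287 CPM at 24 h, and was 1175, 737, 1518 and 742 CPM at 48 h. No library of the Luc groups overlapped with sham, and the 24 h Luc libraries lay above all other Luc libraries. AC hearts gave 456, 1904, 1418 and 1260 CPM at 4 h, 4415, 2243 and 4434 CPM at 24 h and 962, 1200, 855 and 995 CPM at 48 h. The lowest 4 h AC library, AC 1, lay near the sham level while the other 3 lay above every 4 h Luc library.

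**Figure D1:**
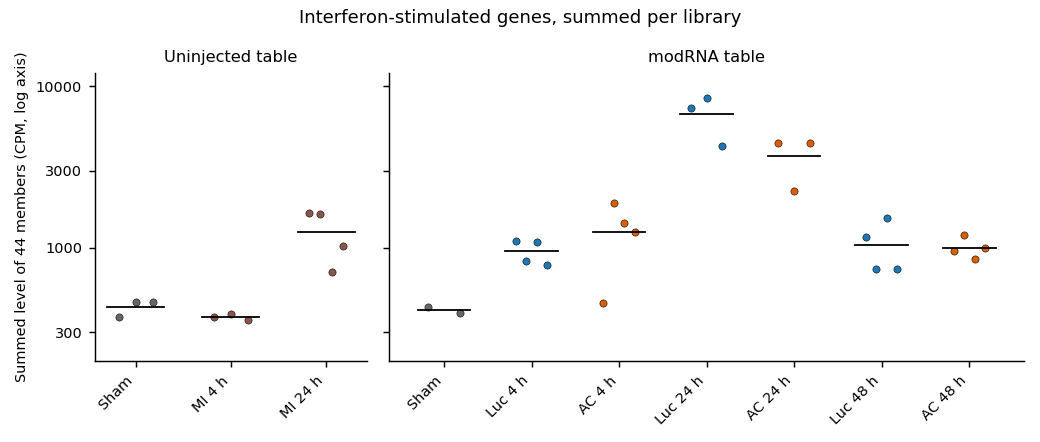
Summed level of the 44 interferon-stimulated genes in each library (CPM, logarithmic axis), by group, for hearts without injection and for the modRNA table; each point is 1 library and the black line the group mean. Sham libraries lie between 374 and 464 CPM, the 24 h libraries without injection between 704 and 1638 CPM, and the 24 h Luc libraries between 4287 and 8455 CPM.

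The same order was seen in the members taken singly. The highest group mean was at 24 h post-MI for all 44 members in the first table, and in the 24 h Luc group for all 44 in the second. In the modRNA table the lowest group mean was in sham for 43 members, with Eif2ak2 as the exception (Luc 4 h). In the first table the lowest mean was in the 4 h libraries for 32 members and in sham for 12.

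The first question was whether the members responded within 4 h of MI in hearts without injection. None was called at q below 0.05 in limma's moderated test on log2(CPM + 1), where q is the Benjamini-Hochberg adjusted p over all genes tested. Among all genes 1.55% were called higher and 0.817% lower. The median change of the members was -0.14 on the log2 scale against -0.03 for all genes, and 31 of 44 lay below 0. The unadjusted p was under 0.05 for 3 members, all lower, among 841 genes higher and 1217 lower in the whole table. These were Eif2ak2, the kinase PKR that stops translation on double-stranded RNA, with a change of -0.36 (SE 0.11, q = 0.14), Parp14, an ADP-ribosyltransferase, with -0.54 (SE 0.17, q = 0.14), and Trim21, an antibody receptor and ubiquitin ligase, with -0.63 (SE 0.23, q = 0.2).

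Eif2ak2 read 15.4, 15.2 and 17.97 CPM in sham and 12.1, 12.2 and 12.8 CPM at 4 h. Parp14 read 23.9, 29.8 and 28.8 CPM and 18.1, 19.7 and 17.6 CPM. Neither pair of groups overlapped, and among all members 8 had every 4 h library below every sham library while Oasl1 had every one above (0.94, 0.847 and 0.845 CPM in sham against 1.24, 1.34 and 1.12 CPM). Among all 12487 genes, groups stood apart in this way for 10.9% upward and 18% downward.

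By 24 h post-MI the picture in hearts without injection was different. Of 44 members 37 rose compared to sham and none fell, where 35.6% of all genes were called higher and 30.3% lower. The median change was 1.28 on the log2 scale for the members and 0.04 for all genes tested. Compared to 4 h post-MI, 40 rose and none fell, with 37.2% of all genes higher and 26.7% lower and a median of 1.38 against 0.10. The comparisons share the 24 h libraries.

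Oas3, which makes the 2-5A messenger that activates RNase L, rose most compared to sham. It read 0.253, 0.282 and 0.228 CPM in sham, 0.188, 0.526 and 0.155 CPM at 4 h and 32.01, 25.6, 8.38 and 19.6 CPM at 24 h in libraries C, D, G and H. All 24 h libraries lay far above the rest, and the change on the log2 scale was 4.02 (SE 0.34, q = 2.2e-06) compared to sham and 3.99 (SE 0.34, q = 3.3e-06) compared to 4 h.

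Zbp1, a sensor of Z-form nucleic acid that can trigger necroptosis, followed. Its level was 0.434, 1.05 and 0.682 CPM in sham, 0.263, 0.862 and 0.774 CPM at 4 h and 31.1, 28.8, 7.85 and 14.9 CPM at 24 h. Library G was the lowest of the 24 h group yet above every earlier library, and Zbp1 rose by 3.49 (SE 0.38, q = 1.3e-05) compared to sham. Isg15, a ubiquitin-like modifier, was at 3.22, 2.98 and 3.02 CPM in sham, 2.14, 2.63 and 2.79 CPM at 4 h and 61.7, 58.4, 22.1 and 41.9 CPM at 24 h. Its mean went from 3.08 ± 0.125 CPM (SD, n = 3) to 46.02 ± 18.2 CPM (SD, n = 4), and it rose by 3.43 (SE 0.28, q = 1.8e-06) compared to sham and 3.64 (SE 0.28, q = 2.0e-06) compared to 4 h.

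By role, all 5 sensors of foreign nucleic acid, all 3 IFIT proteins, all 5 OAS proteins, all 7 other antiviral effectors and all 4 members without a fixed role rose at 24 h compared to sham. Of the interferon signalling factors 3 of 4 rose, of the ISG15 and ubiquitin group 6 of 8, of the antigen processing genes 2 of 3 and of the interferon-inducible GTPases 2 of 5. The 7 members that did not pass the test were Psmb9, Irf1, Gbp7, Gbp3, Igtp, Trim21 and Dtx3l, with changes from 0.19 to 1.05.

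Ddx58, the RIG-I sensor of viral RNA, was at 11.97, 13.8 and 13.7 CPM in sham, 10.9, 10.1 and 10.6 CPM at 4 h and 41.6, 32.1, 22.96 and 30.8 CPM at 24 h. Ifit2, an IFIT protein, was at 7.41, 14.2 and 14.5, 10.8, 9.09 and 10.1 and 31.3, 37.5, 17.04 and 23.6 CPM in the same groups. Oasl2, an OAS-like protein, was at 5.97, 6.696 and 8.77, 4.66, 5.696 and 6 and 93.3, 90.2, 26.9 and 60.8 CPM. For these 3 genes every 24 h library was above every earlier one, with changes from sham of 1.19 (SE 0.16, q = 6.2e-05), 1.12 (SE 0.26, q = 0.0029) and 2.94 (SE 0.35, q = 2.2e-05).

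Samhd1, which lowers the nucleotide pool needed by viruses, read 19.96, 24.8 and 25.4 CPM in sham, 22, 20.2 and 22.8 CPM at 4 h and 84.2, 69.9, 30.2 and 45.9 CPM at 24 h. Parp14 stood at 59.1, 50.8, 36.6 and 39.8 CPM at 24 h, above all sham and 4 h libraries given above. Psmb8, an immunoproteasome subunit, read 6.62, 10.2 and 11.4, 7.75, 9.43 and 9.95 and 34.1, 33.5, 16.2 and 17.01 CPM. Rtp4, a chaperone-like protein that restrains flavivirus replication, read 6.47, 4.88 and 5.95, 6.92, 6.13 and 5.497 and 42.2, 34.4, 16.6 and 29.03 CPM. None of the 4 had overlapping 24 h and sham libraries, and the changes were 1.17 (SE 0.27, q = 0.0028), 0.72 (SE 0.15, q = 0.0016), 1.28 (SE 0.27, q = 0.0015) and 2.15 (SE 0.24, q = 1.8e-05).

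Irf1, a transcription factor that also answers type II interferon, and Igtp, an interferon-inducible GTPase, were among the members not called. Irf1 read 17.1, 18.8 and 22.1 CPM in sham, 21.5, 23.2 and 20.3 CPM at 4 h and 45.3, 47.5, 17.8 and 22.4 CPM at 24 h. Igtp read 9.85, 41.6 and 22.6, 16.1, 24.6 and 17.2 and 69.6, 109.8, 17.1 and 30.6 CPM. In both, libraries C and D were high while G fell within the sham range, and the changes were 0.64 (SE 0.29, q = 0.071) and 1.05 (SE 0.57, q = 0.13). The spread between libraries was wide, and the change of Igtp was close in size to those of Ddx58 and Ifit2, which were called.

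Libraries C and D were both above G and H for 41 of the 44 members, and G was the lowest 24 h library for 42. Here and below, such orders of libraries were counted over the members alone, so no share over all genes stands beside them. Neutrophil markers in C, D, G and H summed to 2024, 1811, 329 and 892 CPM, monocyte or macrophage markers to 523, 287, 295 and 326 CPM and cardiac muscle markers to 19220, 24480, 33660 and 24260 CPM. Of the 7 neutrophil markers tested all 7 rose at 24 h, and 5 of 8 cardiac muscle markers fell. The part of these cell types in the members' change was not tested. Leaving out 1 library gave 34 members called (without sham D) to 43 (without 24 h G), and Eif2ak2, Gbp2 and Irgm1 lost their calls under 6, 7 and 6 of 14 other settings, among them the fits without 24 h C or D.

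In the modRNA table the first time point was 4 h after MI and Luc injection. Of 44 members 4 rose compared to sham and none fell, where 1.25% of all genes were called higher and 0.295% lower. The median change was 0.87 on the log2 scale against 0.02 for all genes, 43 members lay above 0 and for 21 the 95% interval excluded 0. Over the whole table limma's unadjusted p was under 0.05, the same limit, for 1050 genes higher and 660 lower. In 38 members every Luc library was above both sham libraries, as was so for 17.2% of all genes.

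The 4 called members came from 4 roles. Ifit1, which binds RNA lacking cap methylation, read 3.58 and 3.26 CPM in sham and 83.9, 52.1, 90.99 and 47.3 CPM in the Luc libraries, a change of 3.92 (SE 0.58, q = 3.8e-04). Oasl1, an OAS-like protein known to restrain IRF7 translation, read 1.21 and 1.62 and 44.4, 21.02, 36.02 and 20.8 CPM, a change of 3.64 (SE 0.60, q = 0.0016). Isg15 read 1.92 and 1.52 and 32.7, 20, 23.1 and 18.3 CPM, a change of 3.14 (SE 0.39, q = 4.4e-05). Each Luc library was more than the sham pair by a wide margin, and libraries 1 and 3 were the higher ones in all 3 genes.

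Mx2, a dynamin-like antiviral GTPase, read 2.31 and 1.81 CPM in sham and 26.8, 13.4, 25.4 and 11.6 CPM at 4 h and was the last to pass, with a change of 2.65 (SE 0.65, q = 0.039). Rsad2 (viperin), at 6.88 and 4.44 and 51.7, 26.6, 58.7 and 22.4 CPM, did not pass the test, with a change of 2.528 (SE 0.80, q = 0.13). Without the first sham library the calls of Oasl1 and Mx2 were lost and 2 of the 4 were left, and Mx2 lost its call under 8 of 13 other settings in all. When the compared groups were fitted alone 20 members were called, where 488 genes were called higher and 108 lower over all genes. The count at 4 h therefore depended on which libraries were fitted, and the cause of the shift was not tested.

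Neutrophil markers summed to 78.8 to 165 CPM in these Luc libraries and 21.8 and 3.24 CPM in sham, and erythroid markers (4 genes) to 1063 to 1607 and 445 and 129 CPM. Their part in the members' change was not tested.

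At 24 h after MI and Luc injection all 44 members rose compared to sham. Among all genes 25.3% were called higher and 8.79% lower. The median change of the members was 3.47 on the log2 scale against 0.16 for all genes, with a range from 1.56 (Trim25) to 6.19 (Oasl1). Rescaling each library by its median ratio moved the all-gene median to -0.01 and the split of calls over all genes from 3172 higher and 1103 lower to 2296 higher and 2044 lower, and 44 members were still called higher.

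Oasl1 read 127, 296 and 140.1 CPM in the 3 libraries, A, C and D, against the sham values given above, a change of 6.19 (SE 0.63, q = 5.1e-07). Ifit1 read 432, 372 and 182 CPM, a change of 6.13 (SE 0.61, q = 3.5e-07) and 96.2 times the sham mean. Rsad2, the radical enzyme that makes a chain-terminating nucleotide, read 276, 785 and 303 CPM, a change of 5.95 (SE 0.84, q = 2.0e-05). Library C was the highest for Oasl1 and Rsad2 and library A for Ifit1, while over the 44 members D was the lowest for 37.

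Irf7, the factor that amplifies type I interferon production, read 5.21 and 4.95 CPM in sham, 18.9, 9.37, 14.01 and 10.6 CPM at 4 h and 443, 230.1 and 184 CPM at 24 h. Its 4 h libraries were above sham without passing the test, 1.18 (SE 0.41, q = 0.19), and the 24 h change was 5.46 (SE 0.44, q = 5.0e-08). The interferon-inducible GTPases, which attack vacuoles of intracellular microbes, were all called here. Igtp read 42.1 and 33.1 CPM in sham, 43.99, 69.1, 43.3 and 67.3 CPM at 4 h and 841, 507 and 227 CPM at 24 h, a change from sham of 3.59 (SE 0.68, q = 4.1e-04). Its 4 h libraries and sham nearly met, and its 24 h libraries stood clear of both.

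Of the remaining roles, Ddx58 read 8.701 and 11.6, 18.3, 14.4, 21.3 and 13.6 and 186, 220.4 and 115 CPM in sham, at 4 h and at 24 h. Ifit2 read 11.6 and 9.58, 54.5, 38.1, 64.3 and 34.5 and 553, 883 and 351 CPM. Oasl2 read 4.14 and 5.204, 21.7, 10.6, 21.3 and 12.3 and 73.3, 114 and 51.7 CPM. In all 3 the order was sham, 4 h and 24 h without overlap, although the 4 h change did not pass the test in any of them.

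Samhd1 read 21.7 and 21.96, 25.8, 26.03, 28.3 and 22.4 and 62.8, 99.95 and 64.7 CPM in the same groups. Parp14 read 16.4 and 17.1, 35.4, 28.8, 38.9 and 24.9 and 194, 270.2 and 101 CPM. Psmb8 read 11.4 and 8.66, 17.02, 18, 12.4 and 18.3 and 79.8, 99.8 and 84.01 CPM. The changes from sham at 24 h were 1.72 (SE 0.20, q = 1.6e-06), 3.31 (SE 0.44, q = 9.6e-06) and 3.02 (SE 0.28, q = 1.1e-07), and in Samhd1 the 4 h libraries lay just above sham. Rtp4 read 10.04 and 6.47, 31.5, 17.96, 29.4 and 17.4 and 99.9, 123 and 58.4 CPM, and Irf1 read 14.5 and 21.9, 69.3, 54.5, 62.96 and 55.1 and 290.1, 119.6 and 65.9 CPM. In Irf1 the 24 h library D fell within the range of the 4 h libraries.

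Compared to the 4 h Luc libraries, all 44 members were higher at 24 h, where 24.5% of all genes were called higher and 7.8% lower. The median difference was 2.58 against 0.14, and the groups of Irf1 overlapped (q = 0.048, lost under 10 of 14 other settings). Irf7 rose most, by 4.28 (SE 0.36, q = 5.4e-08). Ifit3, which binds and stabilises IFIT1, rose from 43.8, 24.5, 44.4 and 24.4 to 651, 552 and 302 CPM, by 3.82 (SE 0.54, q = 2.4e-05). Usp18, the protease that removes ISG15 and damps the interferon receptor, rose from 8.46, 3.65, 6.77 and 3.76 to 127, 117 and 39.6 CPM, by 3.74 (SE 0.52, q = 2.0e-05). After median-ratio rescaling the all-gene split went from 3079 higher and 979 lower to 1971 higher and 1786 lower, and 43 members were called higher.

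Neutrophil markers at 24 h summed to 99.96, 50.4 and 61.3 CPM in the 3 Luc libraries, above the 21.8 and 3.24 CPM of sham, and monocyte or macrophage markers to 116, 104 and 139.7 CPM, the latter within or below the sham range of 121 to 178 CPM. Markers of plasmacytoid dendritic cells summed to 0.292, 0.292 and 0.431 CPM. Cardiac muscle markers stood at 60000, 58510 and 73650 CPM, above both sham libraries. Summed CPM over all genes was also higher, at 777699, 730630 and 818456 in these libraries and 628938 and 619752 in sham. This difference in scale was not removed from the marker sums. The part of these cell types in the members' change was not tested. The 24 h values of Luc hearts and of hearts without injection come from separately normalised tables and were not tested against each other.

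**Figure D2:**
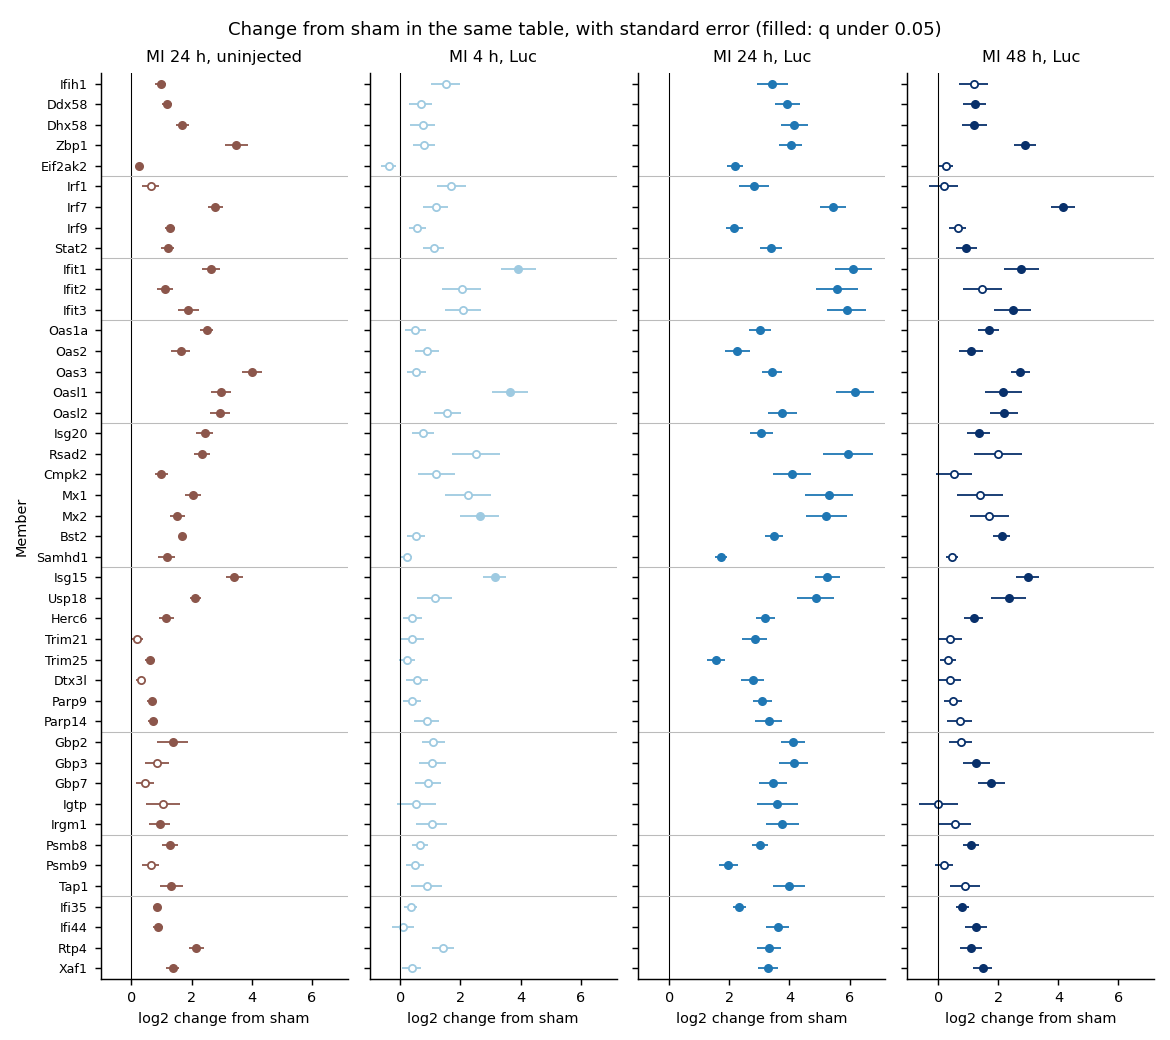
Change of each interferon-stimulated gene from sham in log2(CPM + 1) (points, with limma's standard error as bars, filled where q was under 0.05) at 24 h without injection and at 4 h, 24 h and 48 h with Luc, members ordered by role. At 24 h with Luc all 44 points are filled and lie between 1.56 and 6.19, and at 24 h without injection they lie between 0.19 and 4.02.

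By 48 h after MI and Luc injection 24 of 44 members were still higher than sham and none was lower, where 13.7% of all genes were called higher and 16.4% lower. The median change was 1.19 on the log2 scale. All 5 OAS proteins and all 4 members without a fixed role passed the test. So did 3 of 5 sensors, 2 of 4 signalling factors, 2 of 3 IFIT proteins and 2 of 7 other effectors. The rest were 3 of 8 of the ISG15 group, 2 of 5 GTPases and 1 of 3 antigen processing genes. Of the 24 members, 14 lost their call in some fit with a library left out and 11 under some other alternative. Oas2 and Rtp4 lost theirs under 6 of 13 other settings each, Dhx58 under 7 and Ddx58 under 4.

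Irf7 had the largest change on the log2(CPM + 1) scale, at 125, 88.6, 128 and 93.2 CPM in libraries 1 to 4, a change of 4.16 (SE 0.41, q = 5.5e-07). Isg15 read 24.7, 14.2, 36.6 and 13.4 CPM, a change of 2.98 (SE 0.39, q = 1.0e-05). Zbp1 read 11.2, 8.997, 14.4 and 7.08 CPM against 0.521 and 0.476 CPM in sham, a change of 2.89 (SE 0.37, q = 1.0e-05). Groups did not overlap for any of the 3. Oas3 was at 5.402, 4.85, 9.28 and 5.06 CPM at 48 h and 12.7, 14.3 and 5.603 CPM at 24 h, against 0.0652 and 0.0317 CPM in sham, where both libraries lay under the level of 3 reads, so no fold is given. The order rests on the pseudocount, since with 0.1 CPM in place of 1 CPM the fitted change was 5.35 for Oas3 and 4.37 for Irf7.

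Of the members taken for their role, Ddx58 read 21.9, 18.9, 45.2 and 19.3 CPM at 48 h, Oasl2 read 18.4, 27.2, 29.97 and 24.8 CPM and Rtp4 read 22.7, 13.3, 28.9 and 12.9 CPM. These 3 were called, with changes from sham of 1.21 (SE 0.39, q = 0.023), 2.19 (SE 0.46, q = 0.0011) and 1.09 (SE 0.38, q = 0.032). Samhd1 read 32.96, 26.1, 30.5 and 32.4 CPM and Parp14 25.4, 25.6, 35.9 and 26.8 CPM. Their libraries lay above both sham libraries without passing the test, with changes of 0.46 (SE 0.19, q = 0.066) and 0.72 (SE 0.42, q = 0.2).

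Other members overlapped with sham. Igtp read 74, 20.6, 63.9 and 19.2 CPM, with libraries 1 and 3 above and 2 and 4 below both sham libraries. Irf1 read 34.3, 15.9, 18.7 and 16.8 CPM, and the changes were -0.01 (SE 0.65, q = 1) and 0.18 (SE 0.48, q = 0.81). Without the second sham library 13 members were called at 48 h and without the first 15, so the count rests on both of them. In 35 members Luc libraries 1 and 3 were both above 2 and 4, and library 3 was the highest for 31. Neither order was counted over all genes. Markers of T or NK cells (8 genes) summed to 3.796, 2.56, 19.3 and 2.08 CPM in libraries 1 to 4 and neutrophil markers to 499, 207, 247 and 141 CPM. Their part in the members' level was not tested.

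Compared to 24 h, 43 of 44 members were lower at 48 h and none was higher, where 9.32% of all genes were called higher and 32.6% lower. The median difference was -2.37 against -0.25 for all genes. Ifit2 dropped from 553, 883 and 351 to 33.5, 16.6, 73.5 and 22.4 CPM, a difference of -4.12 (SE 0.58, q = 2.6e-05). Oasl1 dropped to 11.3, 5.14, 24.5 and 6.14 CPM, a difference of -4.01 (SE 0.53, q = 1.4e-05), and Rsad2 to 26.4, 10.4, 91.8 and 14.5 CPM, a difference of -3.97 (SE 0.71, q = 2.2e-04). None of these libraries at 48 h reached the lowest at 24 h. Cardiac muscle markers summed to 58510 to 73650 CPM at 24 h and 34070 to 45420 CPM at 48 h, endothelial markers (6 genes) to 625.2 to 813 and 326 to 555 CPM and monocyte or macrophage markers to 104 to 139.7 and 164 to 246 CPM, all without overlap. Of these lists 7 of 8 and 2 of 6 genes were called lower and 4 of 8 higher, and their part in the members' difference was not tested. Summed CPM over all genes also differed, at 730630 to 818456 at 24 h and 508204 to 641170 at 48 h, which the marker sums do not allow for.

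Oas3 was the member not called, with a difference of -0.68 (SE 0.28, q = 0.054) and overlapping libraries, and Zbp1, Oas2 and Irf7 had differences of -1.15, -1.18 and -1.30. Zbp1 and Irf7 lost their calls without 24 h Luc A, at -0.90 and -0.93, and Oas2 without Luc C, at -0.83. Median-ratio rescaling moved the all-gene split from 1170 higher and 4088 lower to 2000 higher and 2086 lower, and 43 members were called lower either way.

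**Figure D3:**
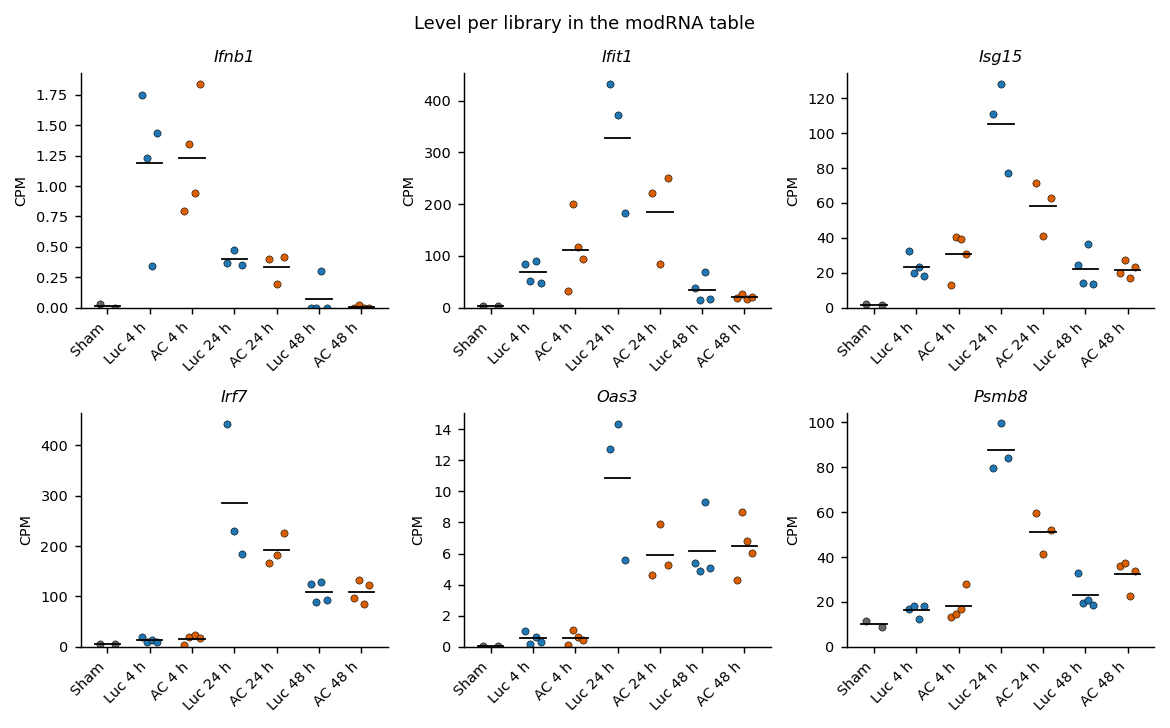
CPM per library (points, linear axis from 0, scaled for each gene) of Ifnb1, the interferon beta gene, and of Ifit1, Isg15, Irf7, Oas3 and Psmb8 in the groups of the modRNA table, with the group mean as a black line. Ifit1 stands above sham at all times and has its highest means at 24 h. Irf7 stays at 88.6 to 128 CPM in Luc hearts at 48 h. Ifnb1, which was not tested, has its highest means at 4 h, although Luc 3 at 4 h (0.339 CPM) lies below all 24 h Luc libraries.

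Of the ligands, Ifnb1, the gene of interferon beta, was present in the modRNA table and below the filter, so it was not tested. It read 0.0326 and 0 CPM in sham, 1.75, 1.23, 0.339 and 1.44 CPM at 4 h with Luc and 0.797, 1.35, 0.946 and 1.84 CPM at 4 h with AC. At 24 h it read 0.365, 0.475 and 0.353 CPM with Luc and 0.398, 0.191 and 0.413 CPM with AC. With Luc the 4 h and 24 h libraries overlapped, since Luc 3 at 4 h (0.339 CPM) lay below all 24 h Luc libraries. With AC they did not overlap. All 4 h and 24 h libraries were above the level of 3 reads and both sham libraries below it. At 48 h it was listed at 0 in 3 of 4 Luc and 3 of 4 AC libraries, and the exceptions were Luc 3 at 0.298 CPM and AC 2 at 0.0241 CPM.

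Among 6 ligand and receptor genes tested, 1 rose and 2 fell at 24 h with Luc. The one that rose was Ifnar2, a chain of the type I receptor, by 0.70 (SE 0.17, q = 0.0027). Ifngr2 and Il10rb, chains of the type II and type III receptors, changed by -1.51 (SE 0.31, q = 8.9e-04) and -0.78 (SE 0.23, q = 0.012). Without injection 3 of the 6 rose and 2 fell at 24 h, with Ifngr2 at -1.05 (SE 0.17, q = 2.1e-04) and Il10rb at -1.14 (SE 0.14, q = 2.6e-05).

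Of 10 kinases, STAT, IRF and SOCS factors outside the 44 members, 7 rose at 24 h with Luc, 2 at 4 h with Luc and 8 at 24 h without injection. Socs1, a feedback inhibitor of the receptor kinases, read 0.0978 and 0.444 CPM in sham, 3.25, 1.75, 2.54 and 1.77 CPM at 4 h, 10.7, 5.73 and 3.96 CPM at 24 h and 0.657, 0.146, 0.796 and 0.47 CPM at 48 h in Luc hearts. Its 4 h and 24 h libraries were above sham without overlap, with changes of 1.38 (SE 0.35, q = 0.043) and 2.54 (SE 0.36, q = 2.2e-05), and its 48 h libraries overlapped with sham. Without injection Socs1 read 0.506, 0.363 and 0.325 CPM in sham and 3.98, 3.13, 1.21 and 2.25 CPM at 24 h, which did not overlap, a change of 1.32 (SE 0.23, q = 4.0e-04).

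Socs3, a feedback inhibitor of cytokine signalling that is driven mainly by STAT3, rose early in both settings. It read 3.94, 2.94 and 3.25 CPM in sham and 93.3, 109.8 and 83.9 CPM 4 h post-MI without injection, a change of 4.46 (SE 0.18, q = 3.5e-07), and was the 1 gene called among the 4 pathway lists in that comparison. Of 28 interferon-induced genes outside the 44, none was called then. The same 28 gave 17 higher and 1 lower at 24 h without injection, and 3, 27 and 9 higher with none lower at 4 h, 24 h and 48 h with Luc. Cxcl10, a chemokine that draws T cells, read 0.261 and 0.317 CPM in sham and 76.6, 37.8, 58.2 and 35.8, 128, 115 and 84.95 and 1.13, 1.02, 7.66 and 0.968 CPM at these times. It rose by 5.29 (SE 0.68, q = 7.6e-05) at 4 h and 6.40 (SE 0.71, q = 1.1e-06) at 24 h, and at 48 h its change was 1.18 (SE 0.68, q = 0.19). Of 11 upstream sensors and adaptors, 7 rose and 1 fell at 24 h with Luc, and 9 rose and 2 fell at 24 h without injection.

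The AC and Luc hearts were compared at each time, which asks whether the members differed between hearts given AC and hearts given Luc. The paper does not describe AC, so the coding sequence and other differences between the preparations cannot be told apart. As a check of the label, Asah1, the acid ceramidase gene, read 13700, 5597, 5296 and 9230 CPM at 4 h, 305, 104 and 190.2 CPM at 24 h and 42.5, 112, 66.4 and 80.3 CPM at 48 h in AC libraries. It read 23.9 to 27.2, 21.98 to 24.7 and 21.4 to 28.2 CPM in Luc libraries at those times. No library labelled AC fell in the Luc range. Asah1 was the 1 gene called at 4 h (0.00796% of genes higher, 0% lower) and again at 24 h (0.00796% higher, 0% lower).

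At 4 h none of the 44 members was called between AC and Luc, and none had an unadjusted p under 0.05, against 55 genes higher and 76 lower in the whole table. The median difference was 0.14 on the log2 scale, and 40 members lay above 0. For Ifit1 the AC libraries read 31.3, 199.5, 118 and 93.3 CPM, and its difference of 0.47 had a 95% interval of -0.51 to 1.44. Isg15 read 12.8, 40.3, 39.4 and 30.5 CPM, with an interval of -0.36 to 0.94, and Rsad2 read 9.23, 158, 89.99 and 58.9 CPM, with -0.82 to 1.89.

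AC 1 was the lowest library for 41 members. The same library had the highest Asah1 level of the 4 and an erythroid marker sum of 6381 CPM. It also had the most genes at 0 in the modRNA table (1652) and the largest share of CPM in its top 10 genes (14.85%). Its summed CPM over all genes was 789483, against 619524 to 703847 in the other 4 h AC libraries. The part of any of these was not tested. Without AC 1 the median difference was 0.59 with 43 members above 0, and without AC 2 it was -0.04 with 26 below 0, and no member was called in either case.

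At 24 h all 44 members were lower in AC than in Luc hearts by their fitted difference, and none was called. The smallest q was 0.82, and 25 members had an unadjusted p under 0.05, among 158 genes higher and 441 lower in the whole table. The median difference was -0.78 on the log2 scale against -0.03 for all genes. In 15 members every AC library was below every Luc library, as was so for 6.92% of all genes, and 19 members had a 95% interval that held 0.

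Dhx58 (LGP2), a regulator of RIG-I and MDA5 sensing, read 37.6, 77.5 and 41.4 CPM with Luc and 29.3, 11.1 and 17.1 CPM with AC, a difference of -1.43 (SE 0.40, q = 0.82). Psmb8 read 79.8, 99.8 and 84.01 and 59.6, 41.4 and 52.2 CPM, a difference of -0.78 (SE 0.25, q = 0.82). Isg15 read 111, 128 and 77.5 and 71.4, 40.9 and 63.1 CPM, a difference of -0.85 (SE 0.36, q = 0.99). In these 3 genes the groups did not overlap. Mx1, the mouse counterpart of the influenza restriction factor MxA, had the largest difference at -1.74 (95% interval -3.23 to -0.26) with libraries at 27.7, 127 and 76.6 and 41.8, 4.95 and 28.8 CPM, which overlapped. Oas2 had the smallest, -0.09, with an interval of -0.86 to 0.68.

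Library AC C was the lowest AC library for 31 members, and Luc D the lowest Luc library for 37. Leaving out each library in turn gave medians from -1.08 (without Luc D) to -0.56 (without AC C), with 41 to 44 members below 0 and none called. Neutrophil markers summed to 55.4, 328 and 91.4 CPM in AC libraries A, C and D and 99.96, 50.4 and 61.3 CPM in Luc libraries. Cardiac muscle markers summed to 62180, 52260 and 61040 and 60000, 58510 and 73650 CPM. Their part in the difference was not tested.

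**Figure D4:**
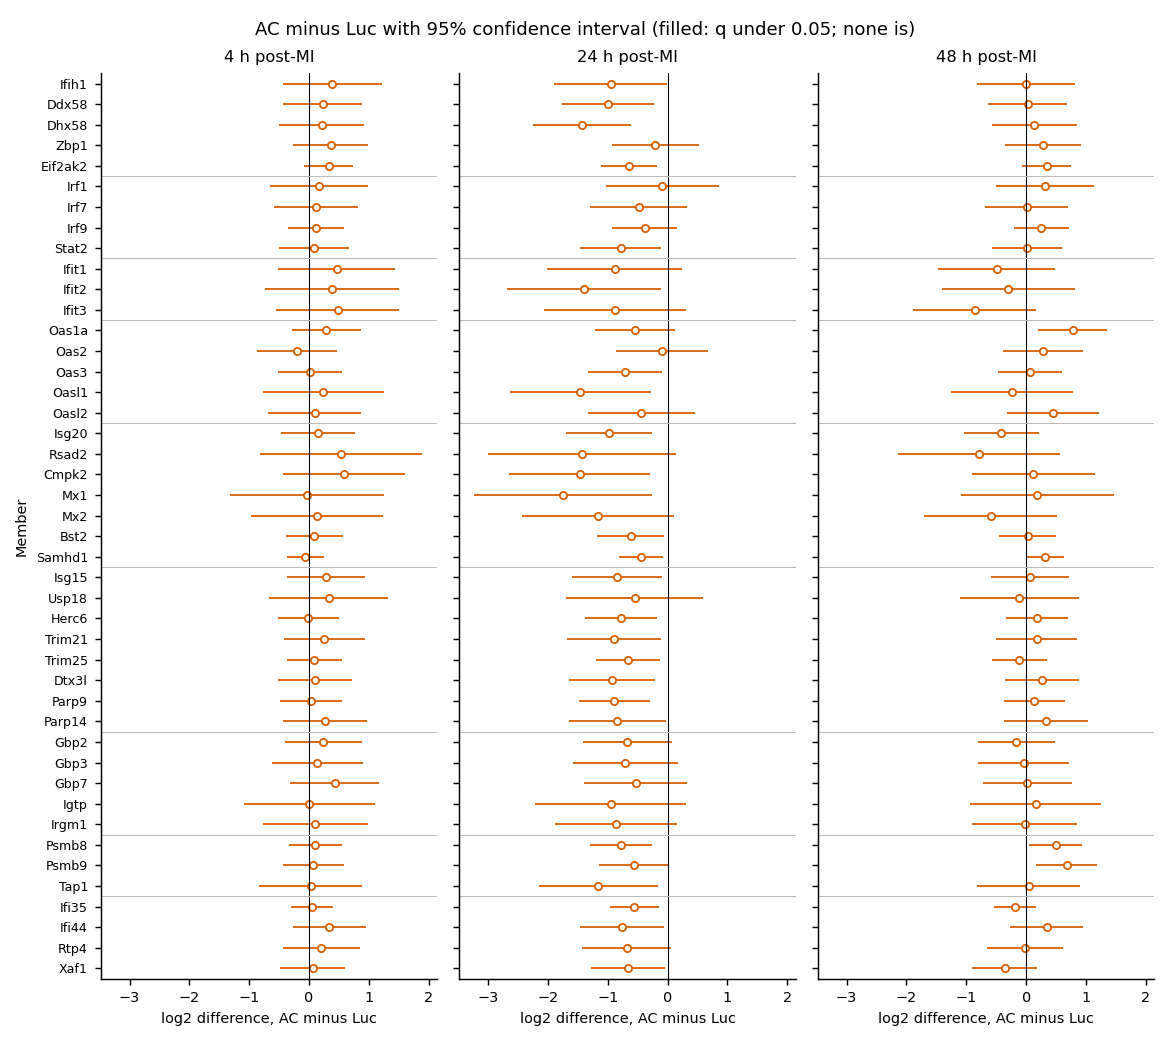
Difference between AC and Luc hearts in log2(CPM + 1) for each interferon-stimulated gene (open points, with 95% intervals from limma as bars) at 4 h, 24 h and 48 h after MI, members ordered by role. At 24 h all 44 points lie below 0, from -1.74 to -0.09, and none passed the test.

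At 48 h no member was called, while 12.1% of all genes were called higher and 3.27% lower in AC than in Luc hearts. The median difference was 0.05 on the log2 scale, and 28 of 44 members lay above 0. The unadjusted p was under 0.05 for 4 members, all higher, among 2951 genes higher and 857 lower. Oas1a, a 2-5A synthetase, read 10.8, 14.2, 10.2 and 11.5 CPM with Luc and 18.5, 26.4, 16.4 and 22.4 CPM with AC, without overlap, a difference of 0.78 (SE 0.28, q = 0.063). Psmb9, another immunoproteasome subunit, read 6.42, 4.67, 4.48 and 4.701 and 14.02, 10.3, 4.85 and 7.67 CPM, a difference of 0.68 (SE 0.25, q = 0.065). Monocyte or macrophage markers summed to 435, 494, 577 and 409 CPM with AC and 212, 246, 164 and 209.8 CPM with Luc, without overlap, and 7 of the 8 were called higher. Their part was not tested. Median-ratio rescaling moved the all-gene split from 1516 higher and 410 lower to 823 higher and 801 lower, and the median of the members to -0.09, with no member called.

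In the AC libraries, Ddx58 read 9.94, 34.2, 22.9 and 18.5 CPM at 4 h, 111, 48.6 and 108 CPM at 24 h and 19.6, 30.8, 26.4 and 24.6 CPM at 48 h. Irf1 read 32.8, 78.9, 93.3 and 85.5 CPM at 4 h, 245, 63.99 and 121 CPM at 24 h and 33.3, 29.1, 20.5 and 21.8 CPM at 48 h. Ifit2 read 15.1, 149, 78.1 and 75.8 CPM at 4 h, 319, 75.1 and 384 CPM at 24 h and 20.9, 29.4, 26.7 and 24.2 CPM at 48 h. In each of these the 24 h libraries lay above those at 48 h, and AC 1 was the lowest at 4 h. Oasl2 read 5.24, 35.5, 22.6 and 17.9 CPM at 4 h, 62.5, 71.7 and 38.3 CPM at 24 h and 24.5, 44.5, 33.8 and 36.6 CPM at 48 h. Samhd1 read 20.6, 32.5, 21.1 and 25.3 CPM at 4 h, 57.8, 53.98 and 50.97 CPM at 24 h and 33.2, 44.6, 39.95 and 35.5 CPM at 48 h. Parp14 read 15.2, 91.01, 40.5 and 37.05 CPM at 4 h, 116, 74.8 and 106 CPM at 24 h and 28.7, 44.5, 36.99 and 33.8 CPM at 48 h. Oasl2 overlapped between 24 h and 48 h and the other two did not. Igtp read 16.9, 81.3, 60.4 and 105 CPM at 4 h, 241, 123 and 447 CPM at 24 h and 62.5, 60.6, 22.4 and 34.9 CPM at 48 h. Rtp4 read 14.01, 31.5, 41.2 and 28.8 CPM at 4 h, 71.2, 36.6 and 65.1 CPM at 24 h and 17.6, 19.97, 15.1 and 20.2 CPM at 48 h. Psmb8 read 13.1, 14.9, 16.9 and 28.2 CPM at 4 h. Compared to the Luc libraries of the same time, Ddx58, Samhd1 and Psmb8 were lower without overlap at 24 h and Samhd1 was higher without overlap at 48 h, and none of these differences passed the test.

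Whether the AC minus Luc difference itself changed with time was tested by an interaction. Between 4 h and 24 h no member passed, where 0 genes higher and 1 lower were called over the whole table. Among the members 43 estimates lay below 0. The unadjusted p was under 0.05 for 17 members, among 118 genes higher and 261 lower in the whole table. Between 24 h and 48 h all 44 estimates lay above 0 and Psmb8 passed, by 1.27 (SE 0.33, q = 0.036), where 280 genes passed upward and 42 downward. Psmb8 read 32.7, 19.4, 21.1 and 18.4 CPM with Luc and 36.03, 37.3, 22.6 and 33.7 CPM with AC at 48 h, where the libraries overlapped and the AC mean was the higher one. That call was lost under 12 of 29 other settings, median-ratio rescaling and the fits without Luc C, Luc D, AC C or AC D at 24 h among them.

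The promoter windows were set beside the changes as a description. At 24 h with Luc the 17 members with an ISRE core had a median change of 3.59 on the log2 scale and the 18 without one 3.13, and all 35 were called. At 4 h with Luc the medians were 1.04 and 0.61, and at 24 h without injection 1.20 and 1.17. For AC minus Luc at 24 h they were -0.85 and -0.71. Members with and without the core overlapped over most of their range in each comparison. Oasl1 and Irf7, whose values are given above, had no core of this spelling in the window.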

How the data were processed

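Reads (single, 50 bp, poly(A) libraries) were aligned by the authors to mm10 with STAR and assigned to RefSeq genes by the expectation-maximisation counter of Partek, which divides a read among matching genes. The authors deposited CPM values (read counts scaled to library total after TMM normalisation) for the first table. The second table holds CPM plus 1, from its values, so 1 was subtracted. Depth per library was estimated from the smallest step between values, and of the values under 1 CPM a median 82.7% and 84.8% per table came out whole within 0.02 reads. Read totals therefore stay estimates and no count test was run.

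Genes averaging 1 CPM or more were tested on log2(CPM + 1) with limma 3.58.1 (R 4.3.3, trended variance, 1 model per table over all its groups), calling q below 0.05. A log2 change on this scale understates the change of low genes. The test named in the study's methods, Partek's GSA, was not used. The script was checked on simulated data. All members were accounted for. Values in every library were given for the member of each role with the highest mean in the first table and, over the libraries compared, for up to 3 called members with the largest change in each direction. In the pathway lists, up to 2 members with the largest change were named (1 listed gene is not reported here), and Ifnb1, Ifnar2, Socs3, Asah1 and Cxcl10 were named after their values were seen. Members, lists and tests were chosen with earlier results of these data known. Promoters (RefSeq, GRCm38.p6) were searched with Python 3.11.15.

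The alternatives were another pseudocount (0.1 CPM), no filter, no variance trend, median-ratio rescaling, array weights, the compared groups alone, a replicate block and leaving out each library.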

Additional observations from a re-analysis of the deposited data

Results flagged for a closer look

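In groups of 4 libraries, 1 library stood apart from the other 3 beyond Dixon's 95% limit in 13 of 220 checks, and chance alone flags about 1 in 20. In the 48 h Luc group library 3 was high for Ddx58 (45.16 CPM, the others 18.93 to 21.93), Oas3 (9.284, others 4.849 to 5.402), Cmpk2 (16.84, others 5.146 to 6.719), Mx1 (7.765, others 2.159 to 2.64), Parp14 (35.88, others 25.44 to 26.77) and Ifi44 (10.74, others 7.336 to 7.77). In the same group library 1 was high for Irf1 (34.34 CPM, others 15.89 to 18.67) and Psmb9 (6.423, others 4.476 to 4.701). In the 48 h AC group library 2 was high for Herc6 (11.97 CPM, others 7.056 to 7.671) and Parp9 (27.14, others 22.42 to 22.69). At 4 h, Luc 1 was high for Bst2 (14.29 CPM, others 9.544 to 9.85), AC 4 high for Psmb9 (11.42, others 5.37 to 6.001) and AC 1 low for Isg20 (2.727, others 5.245 to 5.677).

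Changes that differed between times, by the test of the difference itself, were seen for 40 members between 4 h and 24 h without injection, for 44 between 4 h and 24 h with Luc and for 43 between 24 h and 48 h with Luc. The AC minus Luc difference of Psmb8 differed between 24 h and 48 h by 1.27 on the log2 scale in limma's interaction test.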

How the results depend on the processing

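At 24 h with Luc, 44 members were called higher under every alternative and with any library left out, and at 4 h and 24 h none was called between AC and Luc. For the 24 h changes without injection and the differences between Luc times, counts stayed within 1.5 times. At 4 h without injection, array weights gave 6 calls, where 1030 genes were called higher and 1470 lower over all genes. The compared groups alone gave 2, with 345 genes higher and 360 lower. At 4 h with Luc, the compared groups alone gave 20, with 488 genes higher and 108 lower, and leaving out 1 library 2 to 4. At 48 h with Luc, array weights gave 13, with 947 genes higher and 1280 lower. Leaving out 1 library gave 13 (without sham 2) to 26 (without Luc 2). At 48 h between AC and Luc, array weights gave 4, with 2653 genes higher and 525 lower. The compared groups alone gave 1, with 1034 genes higher and 174 lower, and leaving out 1 library 0 to 1 (without AC 4). For the AC minus Luc difference between times, a pseudocount of 0.1 CPM, median-ratio rescaling and the compared groups alone each gave 0. Array weights gave 11, all between 24 h and 48 h, where 848 genes were called higher and 143 lower. Leaving out 1 library gave 0 to 3 (without 4 h AC 2). The cause of these shifts was not tested. No member's direction reversed in a called result.

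Library numbers shared between groups marked no stated litter or day, and correlations of same-numbered deviations ran from -0.057 to 0.345 (first table) and -0.206 to 0.433 (second), so they were not taken as pairs. A fit with the number as a replicate block gave 0, 37 and 40 calls without injection, 4, 44, 24, 44 and 43 in the Luc comparisons, 0 at each time between AC and Luc and 1 for the interaction, as without it. Depth limits Ifnb1 and sham Oas3, which lie near or under the level of 3 reads. Estimated reads and floors cover counting error alone.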
